A study of Mus musculus with 10 samples.

Results

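The genes described here are 10 genes of the unfolded protein response (UPR), namely *Ern1*, *Ern2*, *Atf6*, *Xbp1*, *Atf4*, *Ddit3*, *Hspa5*, *Hsp90b1*, *Dnajb9* and *Pdia4*. They were taken from a table of 56691 genes by their symbols, which matched 11 rows. All 10 genes passed the filter on low counts, as did 16545 genes in all. The row left over is a second *Ddit3* entry of 105 exonic bases inside the first, with 0 counts in every mouse, and it was not tested.

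RNA was sequenced from the colon of 10 male C57/BL6 mice, 8 weeks old when obtained. The 5 mice of the DSS group drank 3% dextran sulfate sodium, a polymer that injures the colonic epithelium, for 7 days. The 5 mice of the ceAF group drank the same and were then given chick early amniotic fluid by gavage at 15 mL/kg for 10 days. Over the same days the DSS mice were given water by gavage, and the groups were sampled at the same time, as the study's diagram of its design shows. No mice without DSS were analysed here. Each library held between 14676471 and 19901549 reads counted on genes, with medians of 16426125 for DSS and 16058782 for ceAF. Transcripts of the epithelium were abundant in every mouse, with a summed level of 7 markers between 4320 and 6440 FPKM (reads per kilobase of exonic length, scaled to the size of the library), led by *Krt8*.

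The endoplasmic reticulum (ER) folds secreted and membrane proteins, and the UPR adjusts its capacity when unfolded proteins build up. IRE1 (α encoded by *Ern1*, β by *Ern2*) splices *Xbp1* mRNA, PERK raises translation of ATF4, and ATF6 is cut in the Golgi, after which XBP1, ATF4 and ATF6 act as transcription factors. In the colon the response is studied mainly in goblet cells, which secrete mucins and express IRE1β, and in plasma cells, which secrete antibodies and need XBP1.

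No UPR gene differed between the groups after adjustment over all genes, and the groups overlapped for each of them. A gene was called where its adjusted p was under 0.05 and its absolute log2 fold change 1 or more, and 0 of the 10 members were called, against 0% of all genes tested with edgeR's quasi-likelihood test. DESeq2 called 28 of 32504 genes with a count, or 26 when run on the 16545 genes tested with edgeR, limma voom called 0, and 0 of those called were members. At an unadjusted p under 0.05 stood 2 of the 10 members, against 6.93% of all genes: *Ern2* was higher in ceAF (3.26% of all genes were higher at this limit) and *Atf4* was lower (3.67% were lower). The groups were free of overlap for 1.24% of all genes and for 0 members. In all, 9 of 10 members had a lower estimate in ceAF, against 48.6% of all genes, with a median log2 fold change of -0.23 beside 0.01 over all genes. That direction rested largely on a single library: without DSS-5, 5 of 10 members were lower and the median was 0.00.

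**Figure D1:**
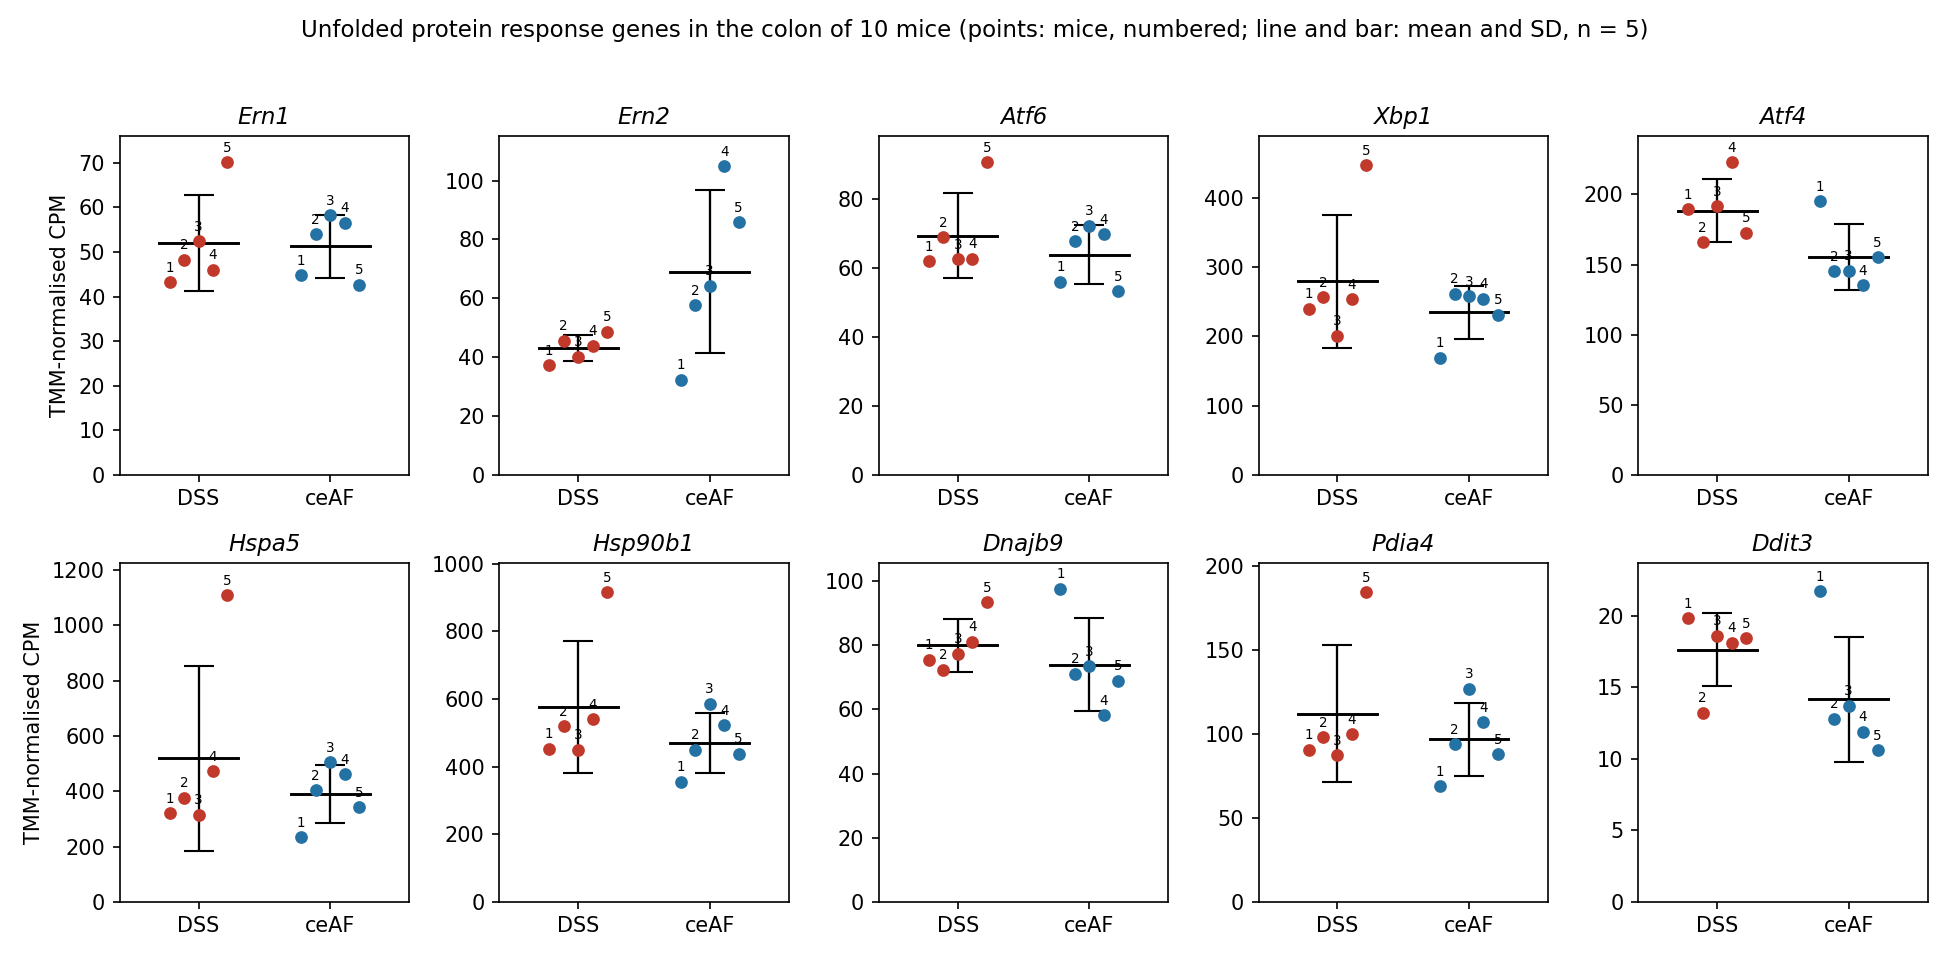
TMM-normalised CPM (read counts scaled to a common library size) of the 10 members, 1 panel per gene, with each point a mouse marked by its number, the line the mean and the bar the SD (n = 5 per group). DSS-5 is the highest mouse for 6 members, among them *Hspa5* at 1108.2 CPM, and 4 of 5 ceAF mice lie above all DSS mice for *Ern2*.

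Libraries differed among themselves in ways the groups do not explain. DSS-5 was the highest of the 10 mice for 6 of 10 members but for 14.9% of all genes, and ceAF-1 was the lowest for 5 of 10 members but for 21.0% of all genes. These counts are on TMM-normalised CPM and move with the scaling. On the deposited FPKM, DSS-5 was the highest for 7 members and 15.4% of all genes, and ceAF-1 the lowest for 7 members and 31.6% of all genes. In ceAF-1, 9.66% of counts were mitochondrial, as were 9.74% in ceAF-5, while the other 8 mice lay between 4.53% and 7.24%. DSS-1 stood apart in neutrophil markers, with a summed level of 2530 FPKM over 6 genes. That level was between 17.0 and 276 FPKM in the other DSS mice and between 1.27 and 56.8 FPKM in the ceAF mice. For several results, values without these libraries are given below.

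Among the sensors, *Ern2* (chromosome 7, 121769116 to 121785430, minus strand) was the only member with a higher estimate in ceAF. Positions of genes are printed as deposited, with no build given in the sources used here. It stood at 37.2, 45.6, 40.2, 43.9 and 48.7 CPM in DSS-1 to DSS-5, and at 32.3, 57.7, 64.3, 104.9 and 85.8 CPM in ceAF-1 to ceAF-5. The 5 DSS mice lay close together, 4 of 5 ceAF mice lay above all of them, and ceAF-1 was the lowest of the 10. The means were 43.1 ± 4.5 and 69.0 ± 27.7 CPM (SD, n = 5 per group), a log2 fold change of 0.68 with an SE of 0.25 and a 95% interval from 0.12 to 1.24. The edgeR test gave p = 0.0214, and an exact two-sided permutation test over all assignments of mice to groups gave p = 0.0952. With Benjamini-Hochberg adjustment over all genes, edgeR gave an adjusted p of 0.656, and over the alternatives tried the adjusted p ran from 0.119 to 1. Without ceAF-1 the log2 fold change was 0.86 (adjusted p = 0.373, edgeR). Without ceAF-4 or ceAF-5 it was 0.49 or 0.59, and then it was no longer under the unadjusted limit. Nor was it under that limit with limma on log2(FPKM + 1) or log2(FPKM + 0.1), at 0.53 and 0.55, where *Ddit3* passed the limit in its place.

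*Ern1* (chromosome 11, 106285476 to 106378678, minus strand), the IRE1 gene expressed in most cell types, stood at 43.2, 48.3, 52.4, 46.0 and 70.2 CPM in DSS-1 to DSS-5, and at 44.8, 54.0, 58.3, 56.6 and 42.7 CPM in ceAF-1 to ceAF-5. DSS-5 lay above all other mice. The other DSS mice lay between 43.2 and 52.4 CPM and the ceAF mice between 42.7 and 58.3 CPM. The log2 fold change was -0.02, with an SE of 0.15 and a 95% interval from -0.35 to 0.31, and its sign turned without DSS-5 (0.13). Per length, *Ern2* was the more abundant IRE1 gene in each mouse, at between 1.91 and 2.63 times the FPKM of *Ern1* in DSS mice. That ratio was 1.99 in ceAF-1 and 2.95, 3.04, 5.11 and 5.55 in ceAF-2 to ceAF-5, above every DSS mouse in the latter 4.

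*Atf6*, the sensor released as a transcription factor, lay between 61.8 and 90.6 CPM in DSS mice and between 53.2 and 72.2 CPM in ceAF mice. DSS-5 was its highest mouse and ceAF-5 its lowest, though on the deposited FPKM ceAF-1 was the lowest (5.4, against 6.12 in ceAF-5). The log2 fold change was -0.12 with an SE of 0.14. The list of other sensors held 2 genes, *Eif2ak3*, which encodes PERK, and *Atf6b*, a relative of *Atf6*. *Eif2ak3* had a log2 fold change of -0.18 (SE 0.17) and *Atf6b* one of -0.12 (SE 0.13). DSS-5 was the highest mouse for both, and neither passed the unadjusted limit.

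Of the transcription factors, *Atf4* (chromosome 15, 80139385 to 80141742, plus strand) was the one under the unadjusted limit. It stood at 189.4, 165.8, 191.6, 223.2 and 172.6 CPM in DSS-1 to DSS-5, and at 195.3, 145.1, 145.5, 135.3 and 155.2 CPM in ceAF-1 to ceAF-5. Here 4 of 5 ceAF mice lay below all DSS mice, and ceAF-1 lay among the DSS mice. The means were 189 ± 22.3 and 155 ± 23.4 CPM (SD, n = 5 per group), a log2 fold change of -0.28 with an SE of 0.12 and a 95% interval from -0.55 to -0.01. The edgeR p was 0.0438, adjusted 0.711 (0.141 to 1 over the alternatives), and the exact permutation p was 0.0476. Of the 10 fits without a single mouse, 3 kept an unadjusted p under 0.05, and the log2 fold change ran from -0.37 to -0.21.

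*Ddit3*, which encodes CHOP, a factor downstream of ATF4 linked to cell death, stood at 19.8, 13.2, 18.6, 18.1 and 18.4 CPM in DSS-1 to DSS-5, and at 21.7, 12.8, 13.7, 11.9 and 10.6 CPM in ceAF-1 to ceAF-5. DSS-2 lay among the ceAF mice and ceAF-1 above all others in CPM, whereas on the deposited FPKM DSS-1 (11.98) lay above ceAF-1 (11.34). The log2 fold change was -0.32, with an SE of 0.20, a 95% interval from -0.75 to 0.12 and an edgeR p of 0.137. Without ceAF-1 it was -0.52 and under the unadjusted limit (adjusted p = 0.373, edgeR, and 0.167 to 1 over the alternatives). The gene overlaps *Mars1* on the opposite strand, which had between 223 and 588 reads per mouse. Whether reads were counted by strand is not given in the sources used here, so reads of the shared stretch cannot be assigned with certainty.

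*Xbp1*, the target of IRE1, stood at 239.9, 256.4, 200.7, 253.2 and 446.7 CPM in DSS-1 to DSS-5, and at 169.2, 261.4, 257.4, 254.0 and 231.0 CPM in ceAF-1 to ceAF-5. Leaving aside DSS-5 and ceAF-1, the remaining 8 mice lay between 200.7 and 261.4 CPM. The log2 fold change was -0.25 with an SE of 0.21 over all mice, and 0.09 without DSS-5 and ceAF-1. Counts per gene do not separate spliced from unspliced *Xbp1*, nor do they show cleavage of ATF6 or phosphorylation of IRE1 or PERK.

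The ER chaperones differed among themselves in how far mice lay apart. *Hspa5* (chromosome 2, 34661982 to 34667559, plus strand), which encodes BiP, the main chaperone of the ER lumen and a target of ATF6, stood at 320.2, 376.8, 315.0, 473.4 and 1108.2 CPM in DSS-1 to DSS-5, and at 234.8, 404.7, 505.1, 461.4 and 342.0 CPM in ceAF-1 to ceAF-5. DSS-5 was 3.18 times the median of the other 4 DSS mice, while ceAF-1 was the lowest mouse. The other mice overlapped, between 315.0 and 473.4 CPM in DSS and between 342.0 and 505.1 CPM in ceAF. The means were 519 ± 336 and 390 ± 106 CPM (SD, n = 5 per group), a log2 fold change of -0.41 with an SE of 0.36 and a 95% interval from -1.20 to 0.37. The edgeR p was 0.273 (adjusted p 0.863, and 0.519 to 1 over the alternatives), and the exact permutation p was 0.563. Without DSS-5 the log2 fold change turned to 0.09, and without both DSS-5 and ceAF-1, a choice made after seeing the data, it was 0.22 (adjusted p = 0.519, edgeR).

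*Hsp90b1* (chromosome 10, 86526073 to 86541373, minus strand), the ER member of the HSP90 family, stood at 453.5, 520.1, 450.4, 540.5 and 915.9 CPM in DSS-1 to DSS-5, and at 354.8, 449.4, 586.3, 523.2 and 438.2 CPM in ceAF-1 to ceAF-5. The same mice were at the extremes as for *Hspa5*, and the log2 fold change of -0.29 (SE 0.21) was -0.05 without DSS-5. *Pdia4*, a disulfide isomerase, lay between 87.2 and 184.3 CPM in DSS mice and between 68.8 and 127.0 CPM in ceAF mice, again with DSS-5 highest and ceAF-1 lowest. Its log2 fold change was -0.21 (SE 0.23), and 0.06 without DSS-5.

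*Dnajb9*, a cochaperone of BiP and a target of XBP1, departed from *Hspa5*, *Hsp90b1* and *Pdia4* in ceAF-1. It stood at 75.5, 72.4, 77.4, 81.2 and 93.5 CPM in DSS-1 to DSS-5, and at 97.6, 71.2, 73.5, 58.3 and 69.0 CPM in ceAF-1 to ceAF-5. DSS-5 was again the highest DSS mouse, but ceAF-1, the lowest for *Hspa5*, was here the highest of the 10 in CPM. This order turned with the scaling, since on the deposited FPKM DSS-5 (37.19) was the highest and ceAF-1 (34.19) came next. The log2 fold change was -0.11 with an SE of 0.13, and -0.23 without ceAF-1, still not under the unadjusted limit.

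Per length, the median level over the 10 mice placed *Hsp90b1* first at 122 FPKM and *Hspa5* next at 92.0 FPKM. *Xbp1* at 76.8 FPKM and *Atf4* at 72.3 FPKM followed, then *Pdia4* at 39.4 FPKM and *Dnajb9* at 29.6 FPKM. *Ern2* at 16.1 FPKM, *Ddit3* at 8.90 FPKM, *Atf6* at 7.10 FPKM and *Ern1* at 6.23 FPKM were the least abundant. Every pair of neighbours in this order overlapped in its range of FPKM over the mice. Within a mouse the order was firmer, since the first of a pair was above the next in at least 8 of 10 mice, except for *Xbp1* above *Atf4* in 6 of 10.

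Across the 10 mice, 5 of the other 9 members followed *Hspa5*, judged by Benjamini-Hochberg adjusted permutation tests over the 9 relations on log2 CPM, and for 4 no relation was shown. Of all other genes, 1.38% had a Pearson r with *Hspa5* at least as high as the lowest of these 5 members, *Ern1*, and 8.84% did over the 9 mice without DSS-5. *Pdia4* had a Pearson r of 0.98 (permutation p = 1e-05, the smallest the resamples can give, adjusted 9e-05) and a Spearman rho of 0.96 (p = 6e-05, adjusted 0.00054). *Hsp90b1* had an r of 0.98 (permutation p = 8e-05, adjusted 0.0003) and a rho of 0.87 (p = 0.00217, adjusted 0.00976). *Xbp1* had an r of 0.96 (permutation p = 0.0001, adjusted 0.0003) and a rho of 0.84 (p = 0.00388, adjusted 0.0102). The 3 genes therefore ranked the mice of both groups much as *Hspa5* did.

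The other 2 of the 5 were the sensors *Atf6* and *Ern1*. *Atf6* had an r of 0.89 (permutation p = 0.00184, adjusted 0.00414) and a rho of 0.83 (p = 0.00454, adjusted 0.0102). *Ern1* had an r of 0.82 (permutation p = 0.00413, adjusted 0.00743) and a rho of 0.71 (p = 0.0263, adjusted 0.0474). Without DSS-5 and ceAF-1, the mice farthest from the median of *Hspa5*, r over the remaining 8 was 0.86 for *Pdia4*, 0.85 for *Hsp90b1*, 0.71 for *Xbp1*, 0.61 for *Atf6* and 0.57 for *Ern1*. Over these 8 mice an exact permutation test, adjusted over the 9 relations, kept *Pdia4* (p = 0.00117, adjusted 0.0105). It did not keep *Hsp90b1* and *Xbp1* (adjusted 0.0694 for both), *Atf6* (0.215) or *Ern1* (0.252). Leaving out the mice farthest in *Hspa5* narrows its range and leaves fewer mice. The lost calls therefore do not decide whether the relations of these 4 genes rest on DSS-5 and ceAF-1. Over the 9 mice without DSS-5 alone, r was 0.927 for *Hsp90b1* and 0.869 for *Xbp1*. With each group's mean removed, r stayed between 0.84 and 0.99 for these 5 genes.

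The other 4 members gave r of 0.27 for *Ern2* (permutation p = 0.458, adjusted 0.686), 0.10 for *Dnajb9* (p = 0.764, adjusted 0.844), -0.08 for *Ddit3* (p = 0.844, adjusted 0.844) and -0.20 for *Atf4* (p = 0.603, adjusted 0.775). Their rho values were 0.58 (permutation p = 0.0877, adjusted 0.132), -0.10 (p = 0.787, adjusted 0.787), -0.37 (p = 0.296, adjusted 0.351) and -0.36 (p = 0.312, adjusted 0.351), in the same order. Without DSS-5 and ceAF-1 their r values were 0.41, -0.21, -0.27 and -0.29, and with each group's mean removed 0.51, 0.03, -0.25 and -0.49. Whether the 5 genes differed from these 4 in their relation to *Hspa5* was not tested.

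**Figure D2:**
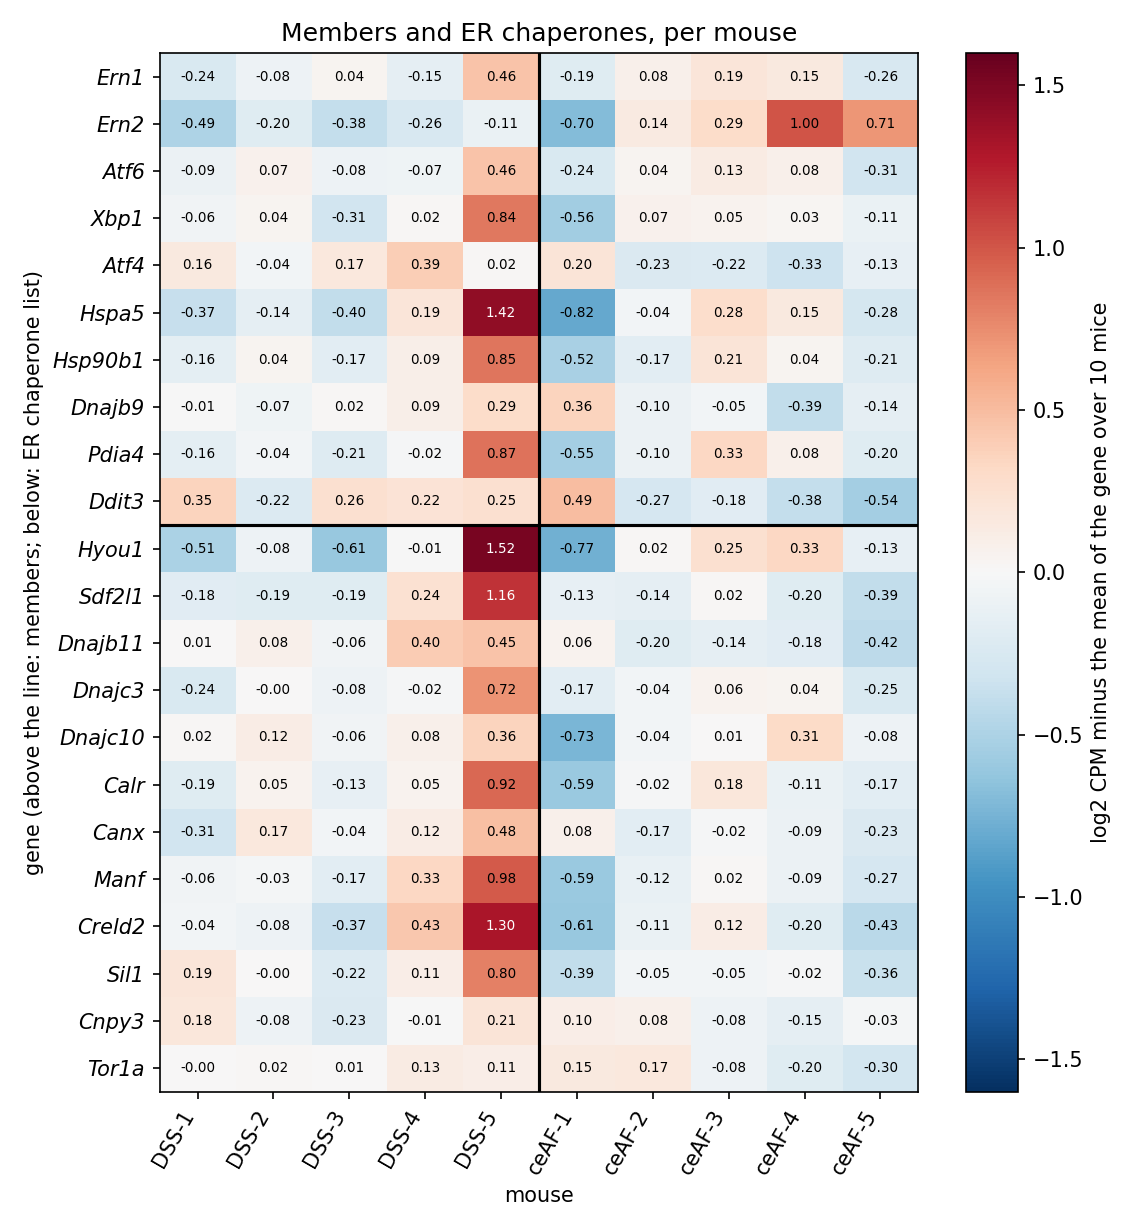
Log2 CPM of the 10 members (above the line) and of the 12 genes of the ER chaperone list (below) in each mouse, minus the gene's mean over the 10 mice. The DSS-5 column is high for *Hspa5* (1.42), *Hyou1* (1.52) and *Creld2* (1.30), and the ceAF-1 column is low for *Hspa5* (-0.82) but high for *Dnajb9* (0.36) and *Ddit3* (0.49).

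Of 16544 other genes, the 10 most like *Hspa5* over the 10 mice by Pearson r held 3 members, *Hsp90b1*, *Pdia4* and *Xbp1*. Others among them were *Hyou1* (r = 0.976), an ER chaperone of the HSP70 family, *Sec61a1* (0.972), the pore of the translocon, *Pdia6* (0.968), a disulfide isomerase, and *Calr* (0.966), a chaperone of glycoproteins. The remaining 3 were *Maml3* (0.981), a coactivator of Notch signalling, *Tmem50b* (0.961) and the predicted gene *Gm38910* (0.961). Of these 10 genes, 6 were also among the 10 most like *Hspa5* over the 9 mice without DSS-5, while *Hyou1*, *Tmem50b*, *Calr* and *Xbp1* then ranked 12, 14, 28 and 46. These values are descriptions over mice of both groups and carry no test.

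Other genes of the pathway were read from 8 lists with 89 genes, of which 88 were tested. Estimates were lower in ceAF for 69 and higher for 19 (lower for 55 of 88 without DSS-5), and 0 were called by edgeR, DESeq2 or limma voom. Lower estimates thus made up 78.4%, against 48.6% of all genes. At an unadjusted p under 0.05, 5 were lower and 0 higher, which is 5.68% against 6.93% of all genes. DSS-5 was the highest mouse for 39 of the 88 (44.3%, against 14.9% of all genes) and ceAF-1 the lowest for 38 (43.2%, against 21.0%). As for the members, the mice at the extremes were often DSS-5 and ceAF-1.

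In the list of ER chaperones and cochaperones, all 12 genes had a lower estimate in ceAF (median log2 fold change -0.32), and DSS-5 was the highest mouse for 11. Without DSS-5, 9 of 12 were lower and the median was -0.07. *Hyou1* stood at 247.7 CPM in DSS-5, between 56.6 and 85.7 CPM in the other DSS mice and between 50.8 and 109.1 CPM in ceAF mice. *Calr*, among the 2 most abundant of the list with *Canx*, stood at 1229.5 CPM in DSS-5 and between 432.7 and 736.9 CPM in the other 9 mice. *Dnajb11*, a cochaperone of BiP, was the gene of this list under the unadjusted limit. It lay between 154.3 and 220.0 CPM in DSS mice and between 119.6 and 167.9 CPM in ceAF mice, a log2 fold change of -0.36 with an SE of 0.13 (edgeR adjusted p = 0.656, exact permutation p = 0.0238). Its ceAF mice other than ceAF-1 lay below all DSS mice. *Canx*, a lectin chaperone of the ER membrane, had a log2 fold change of -0.19 (SE 0.14).

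Among 13 genes of translocation and signal peptide processing, all had a lower estimate (median -0.16), and DSS-5 was the highest mouse for 10. Without DSS-5, 8 of 13 were lower and the median was -0.03. *Sec61b*, a subunit of the translocon, lay between 57.7 and 81.3 CPM in DSS mice and between 53.7 and 65.0 CPM in ceAF mice, a log2 fold change of -0.28 with an SE of 0.10 (edgeR adjusted p = 0.656, exact permutation p = 0.0238). *Ssr3* and *Ssr2*, subunits of the translocon-associated complex and the most abundant of this list, had log2 fold changes of -0.11 (SE 0.13) and -0.14 (SE 0.13). Among 10 disulfide enzymes, 8 were lower and 2 higher (median -0.12), with 0 under the unadjusted limit. Without DSS-5 the direction turned, with 4 of 10 lower and a median of 0.02. *Agr2*, a disulfide isomerase of goblet cells and the most abundant of these at a median of 520 FPKM, had a log2 fold change of 0.06 (SE 0.23), and *P4hb* one of -0.15 (SE 0.14).

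Among 17 genes of ER-associated degradation, 12 were lower and 5 higher (median -0.06). *Derl3*, which takes part in moving misfolded proteins out of the ER, stood at 5.9, 4.9, 5.2, 5.2 and 4.3 CPM in DSS-1 to DSS-5, and at 0.8, 4.3, 3.3, 2.1 and 2.5 CPM in ceAF-1 to ceAF-5. The DSS mice lay above the ceAF mice except that DSS-5 and ceAF-2 met at 4.3 CPM, with a log2 fold change of -0.96, an SE of 0.35, an edgeR adjusted p of 0.656 and an exact permutation p of 0.0159. *Ube2g2*, a ubiquitin-conjugating enzyme, had a log2 fold change of -0.33 with an SE of 0.12 (edgeR adjusted p = 0.656, exact permutation p = 0.0238). *Herpud1* and *Os9*, the most abundant of the list, had log2 fold changes of 0.21 (SE 0.20) and -0.11 (SE 0.11). Without DSS-5, *Dnajb11* (-0.27), *Sec61b* (-0.25) and *Ube2g2* (-0.24) were no longer under the unadjusted limit, and *Herpud1* (0.40) then was.

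In the PERK and ATF4 arm, 13 of 21 genes tested were lower and 8 higher (median -0.06), and *Fgf21* was not tested, with 5 reads in all mice together. *Cebpb*, a partner of ATF4, was the gene under the unadjusted limit, at a log2 fold change of -1.31 with an SE of 0.53 (edgeR adjusted p = 0.694, exact permutation p = 0.0714). DSS-1, the mouse with high neutrophil markers, stood at 62.9 CPM, and the other 9 mice lay between 7.1 and 12.6 CPM. Without DSS-1 the log2 fold change was -0.34 (SE 0.19) and no longer under the unadjusted limit. *Nupr1*, a stress-induced chromatin protein and the most abundant of this list, had a log2 fold change of -0.45 (SE 0.30), and *Ppp1r15b*, a subunit of the phosphatase that acts on eIF2α, one of -0.06 (SE 0.17). *Atf4* itself was below the DSS range in 4 ceAF mice. Of its arm 13 of 21 genes were lower, against 48.6% of all genes, and whether the arm followed *Atf4* was not tested.

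Of 5 other ER-bound bZIP factors, 3 were lower and 2 higher, with *Creb3l1* at 0.10 (SE 0.26) and *Creb3* at -0.11 (SE 0.09) on the log2 scale. Of 8 genes of ER stress linked cell death, 6 were lower and 2 higher, with *Bak1* at -0.08 (SE 0.14) and *Bax* at -0.09 (SE 0.12). Neither list had a gene under the unadjusted limit.

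Since *Ern2* is known from goblet cells, its values were set beside 9 goblet cell markers, of which 8 had a lower and 1 a higher estimate in ceAF, with 0 called and 0 absent. Under the unadjusted limit was 1 of them, *Tff3*, at a log2 fold change of -0.67 (SE 0.29). Without DSS-1, and also without ceAF-1, 0 of the 9 were under it. The median of the list was -0.29 over all mice and -0.08 without ceAF-1. Their summed level was 6660, 3660, 4020, 6010 and 3790 FPKM in DSS-1 to DSS-5, and 1260, 3760, 3370, 4470 and 4160 FPKM in ceAF-1 to ceAF-5. The 4 ceAF mice with high *Ern2* thus lay within the range of the DSS mice or just under it for the goblet markers, while ceAF-1 was the lowest for both. *Zg16*, the most abundant of the list, had a log2 fold change of -0.54 (SE 0.35). The markers did not share 1 pattern, since 4 of the 9, *Muc2*, *Spdef*, *Galnt12* and *Sytl2*, were highest of all mice in ceAF-4, the mouse with the highest *Ern2*, and 0 of the 9 in ceAF-5. The part of goblet cells in the values of *Ern2* was not tested. In whole tissue, fewer cells of a type and less RNA per cell cannot be told apart.

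**Figure D3:**
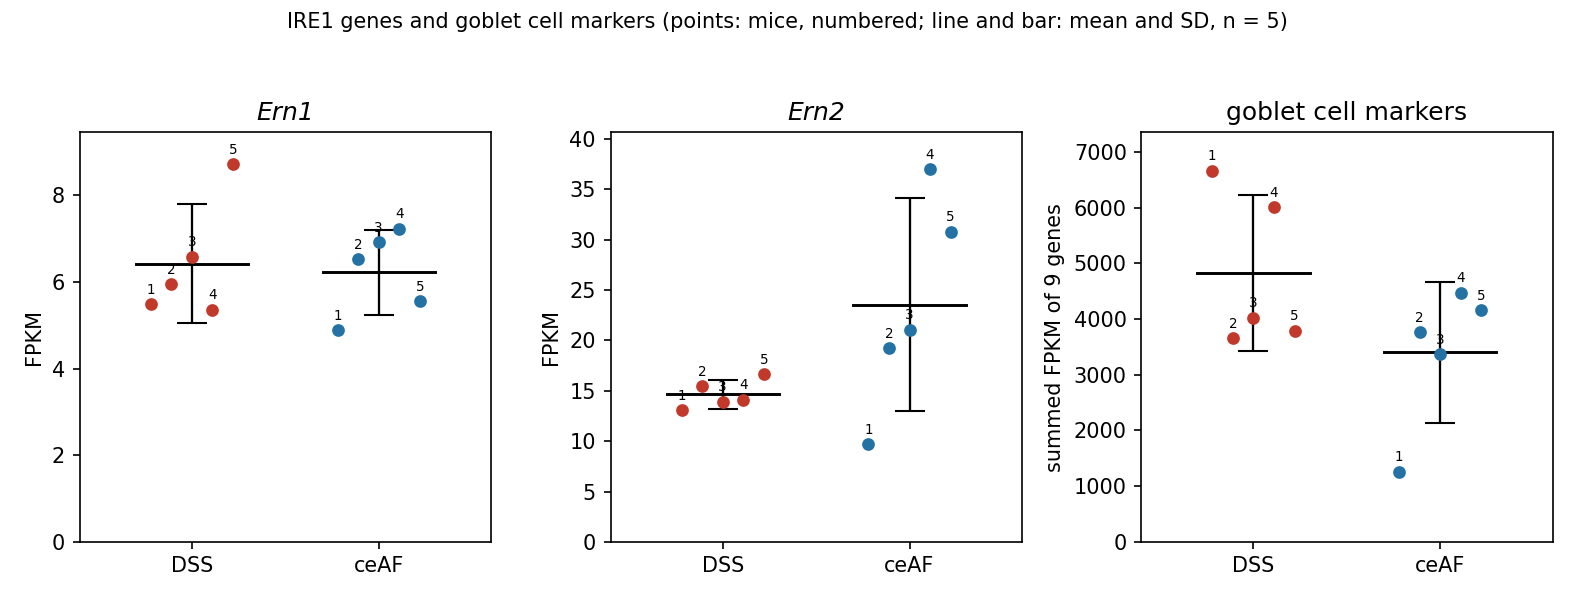
Deposited FPKM of *Ern1*, *Ern2* and the sum of 9 goblet cell markers in each mouse, with each point a mouse marked by its number, the line the mean and the bar the SD (n = 5 per group). For *Ern2*, ceAF-4 (36.96) and ceAF-5 (30.78) stand highest, whereas for the markers DSS-1 (6660) and DSS-4 (6010) do.

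Plasma cells, rich in ER, were judged by 8 markers, 7 lower and 1 higher in ceAF with 0 under the unadjusted limit. Their summed level was 1220, 909, 844, 1050 and 367 FPKM in DSS-1 to DSS-5, and 166, 884, 861, 491 and 866 FPKM in ceAF-1 to ceAF-5, led by *Igha*. DSS-5, highest for *Hspa5*, was the lowest DSS mouse for these markers, while ceAF-1, lowest for *Hspa5*, was the lowest of all. The high chaperone transcripts of DSS-5 were thus found with low plasma cell markers and with goblet markers inside the range of the other mice. DSS-5 was also the lowest of the 10 mice for the summed level of the 7 epithelial markers (4320 FPKM) and for 4 of the 7 genes.

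Other cell types were summed in the same way. For 7 markers of surface colonocytes, led by *Car1*, the level was 2670 FPKM in DSS-5, the lowest of the 10 mice, and 11700 FPKM in ceAF-1, the highest. The genes of the list did not all follow *Car1*, which stood at 114.8 CPM in DSS-5 and 11922 CPM in ceAF-1. DSS-5 was the lowest mouse for 3 of 7 (*Car1*, *Krt20* and *Guca2a*) and the highest for 1 (*Car4*), and ceAF-1 was the highest for 2 (*Car1* and *Guca2a*) and the lowest for 2 (*Slc26a3* and *Aqp8*). For 5 markers of enteroendocrine cells, led by *Pyy*, it was 323 FPKM in DSS-5, the highest, and 65.6 FPKM in ceAF-1, the lowest. Within the enteroendocrine list, DSS-5 was the highest mouse for 3 of 5 genes and ceAF-1 the lowest for 2. The part of cell composition in the values of the members was not tested.

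For 5 markers of the crypt and dividing cells, led by *Mki67*, all 5 were higher in ceAF with 1 under the unadjusted limit. For 6 T cell markers, led by *Trbc2*, all 6 were lower with 5 under it. Their summed level was 18.1 FPKM in DSS-5, inside the ceAF range of 11.1 to 30.5 FPKM, and between 50.7 and 60.3 FPKM in the other DSS mice. Lower and under the limit were also 2 of 6 macrophage markers, led by *C1qb*, and 5 of 5 tested neutrophil markers, led by *S100a8*. DSS-1 was the highest mouse for all 5 neutrophil markers and all 6 macrophage markers, and without it 1 of 5 and 0 of 6 were under the limit, as were 4 of 6 T cell markers and 0 of 5 of the crypt list. The count was also 0 for macrophages without ceAF-1 and 0 for the crypt list without DSS-5. B cells (*Cd79a*), fibroblasts (*Col3a1*), smooth muscle (*Acta2*), and enteric neurons and glia (*Uchl1*) had 0 genes under it. Of 6 markers of pancreas, liver and squamous tissue, *Amy2b* was at 0 in all mice and *Cela1* was the most abundant.

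The promoters of *Hspa5* and *Hsp90b1* are shown, as those of the members in which a motif was found. *Pdia4* and *Xbp1*, which followed *Hspa5* about as closely from mouse to mouse as *Hsp90b1* did, held 0 exact matches in the bases searched. Elements with other letters, or farther from the start, would not be found by this search. Promoters of 8 of the 10 members were found in the RefSeq table for GRCm38.p6 (*Ern2* and *Atf6* were not), whose positions are of another build than the deposited ones, each spanning 250 bases before the start and 50 after. They were searched on both strands for the ER stress response element (CCAAT, then 9 bases of any kind, then CCACG), its second form (ATTGG, 1 base, CCACG), the UPR element (TGACGTGG or TGACGTGA) and the ATF4 and C/EBP element (TGATG, 1 base, AA). The other strand of TGACGTGG begins with CCACG, so that a stretch can count for more than 1 of these. The first element was present in *Hspa5* and *Hsp90b1*, that is 2 of 8 members and 0.119% of 32851 promoters. The UPR element ending in A was present in *Hspa5* only among the members and in 0.441% of promoters, and the form ending in G in none of them and in 0.676% of promoters. The second form of the ER stress response element (0.0365% of promoters) and the ATF4 and C/EBP element (3.97% of promoters) were in none of the 8. In the 73 genes of the pathway lists with a promoter, the first element was present in 8, among them *Calr*, *Canx*, *Creld2*, *Pdia6* and *Derl3*. The 250 bases before each start are given 5′ to 3′ on the strand of the gene, with matches in capitals.
*Hspa5*, chr2:34771840-34772089, plus strand: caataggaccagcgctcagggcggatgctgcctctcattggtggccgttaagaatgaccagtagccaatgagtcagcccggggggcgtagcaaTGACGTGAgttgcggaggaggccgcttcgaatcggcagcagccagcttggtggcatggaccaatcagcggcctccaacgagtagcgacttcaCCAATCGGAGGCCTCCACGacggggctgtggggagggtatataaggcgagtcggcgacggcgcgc
*Hsp90b1*, chr10:86705445-86705694, minus strand: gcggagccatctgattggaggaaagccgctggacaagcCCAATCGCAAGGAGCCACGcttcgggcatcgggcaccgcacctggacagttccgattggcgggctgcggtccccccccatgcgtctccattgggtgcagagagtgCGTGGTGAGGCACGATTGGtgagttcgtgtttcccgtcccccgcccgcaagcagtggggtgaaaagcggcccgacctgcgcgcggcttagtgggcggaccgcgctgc
In *Hspa5* the capitals mark the UPR element and then the ER stress response element, which begins 65 bases before the start. In *Hsp90b1* they mark the ER stress response element on both strands, 212 and 107 bases before the start. These matches describe letters in the sequence, and binding was not measured.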

How the data were processed

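RNA from the colon of 10 mice, numbered 1 to 5 within each group, was sequenced from poly(A) libraries. The authors deposited 1 table with whole-number read counts per gene, and beside them FPKM, which equal each count per kilobase of exonic length, scaled to the library's total. The deposited table gives exonic lengths and gene positions among its other columns. The submitters' processing notes name cutadapt 1.9.1 and HISAT2 2.2.1, while the counting program, genome build and annotation are not given in the sources used here. Positions are printed as deposited, and their build is unknown. The FPKM hold the same counts, so neither unit shows reads lost in alignment or shared between overlapping genes.

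Counts were analysed with edgeR 4.0.16 in R 4.3.3 (filterByExpr with a minimum count of 10, TMM factors, two-sided quasi-likelihood test, Benjamini-Hochberg adjustment over the 16545 genes kept). Standard errors were the log2 fold change over the root of F, and 95% intervals used the t quantile. CPM are TMM-normalised, and log2 CPM add a prior count of 1. Exact permutation tests covered every assignment of 5 of 10 mice, and correlations used 100000 resamples (SciPy 1.17.1). DESeq2 1.42.0 (on all genes with a count and, added after seeing the data, on the genes kept), limma 3.58.1, other scaling factors and filters, log2(FPKM + 1) and log2(FPKM + 0.1), the mouse number as a block and leaving out mice were the alternatives. The members and lists were chosen with earlier results of these data known. Genes named are all members and, of each pathway list, up to 4 with the smallest p under 0.05 and the 2 most abundant. Also named are the 10 most like *Hspa5* and the most abundant of each of 14 marker lists with any at 0 in all mice, while *Hyou1* in the chaperone list, *Creld2*, *Mars1*, *Fgf21* and the further goblet and colonocyte markers were named after their values were seen.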

Additional observations from a re-analysis of the deposited data

Results flagged for a closer look

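Single mice far from the rest of their group were sought in the log2 CPM of the 10 members and in the mean log2 CPM of the 8 pathway lists, in 36 groups of 5 mice. The measure was the gap from the highest or lowest mouse to the nearest other mouse as a share of the group's range, at Dixon's 95% limit of 0.71, which chance passes in about 1 of 20 groups. It was passed in 7 groups, 4 of them through DSS-5. In that mouse the highest values of *Hsp90b1* (share 0.743), *Atf6* (0.718) and *Pdia4* (0.821) and of the list of disulfide enzymes (0.737) stood apart. *Hspa5* in DSS-5, at 1108.2 CPM, did not pass this limit. In ceAF-1 the lowest values of *Xbp1* (0.716) and of the list of the PERK and ATF4 arm (0.750) stood apart. In DSS-2 the lowest value of *Ddit3* (0.775) did. These genes vary together over mice, so the 7 are not independent of each other. The source of the values in DSS-5 and ceAF-1 was not tested.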

How the results depend on the processing

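Over 21 alternatives, 0 members were called in any, and *Ern2* (0.49 to 0.92), *Atf4* (-0.39 to -0.21), *Ddit3* (-0.52 to -0.23) and *Dnajb9* (-0.23 to -0.03) kept the sign of their log2 fold change in all. The other 6 members turned to a higher estimate in ceAF in some fits, none with an unadjusted p under 0.05. Under limma voom with sample weights the log2 fold change was 0.09 for *Hspa5*, 0.02 for *Xbp1*, 0.12 for *Ern1*, 0.01 for *Atf6* and 0.06 for *Pdia4*, and the median of the members was 0.01. Without DSS-5 and ceAF-1, chosen after seeing the data, it was 0.22, 0.09, 0.17, 0.05 and 0.16 in the same order, 0.04 for *Hsp90b1* and 0.07 for the median. Leaving out each mouse in turn gave -0.54 to 0.09 for *Hspa5*, -0.08 to 0.13 for *Ern1*, -0.16 to 0.01 for *Atf6*, -0.32 to 0.06 for *Pdia4* and -0.27 to 0.00 for the median. The upper end came without DSS-5 each time, and *Ern1* also turned without ceAF-1 (0.02) and ceAF-5 (0.04).

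Genes called numbered 28 with DESeq2, 26 with DESeq2 on the genes edgeR kept, chosen after seeing the data, 0 to 3 without single mice (3 without DSS-5) and 1 without DSS-5 and ceAF-1. Genes with an unadjusted p under 0.05, 1146 in the reported test, numbered 2452 with voom, 1733 without a filter, which tests more genes, 712 to 1872 without single mice and 2970 without DSS-5 and ceAF-1. On log2(FPKM + 1) and log2(FPKM + 0.1), 69.5% and 70.6% of such genes were lower, against 53.0%. Members under this limit numbered 1 without a filter (*Ern2*) and 0 to 3 without single mice, 0 being reached without ceAF-4 or ceAF-5. On both FPKM scales they were *Atf4* and *Ddit3*. Pathway list genes under the limit numbered 9 with voom and on both FPKM scales, 8 with DESeq2 on the genes kept, 3 to 11 without single mice and 14 without DSS-5 and ceAF-1. The causes were not tested.

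With the mouse number as a replicate block, 694 genes, 1 member and 3 pathway list genes were under the unadjusted limit and 0 genes were called. The sources used here do not say whether the numbers pair the mice. Deviations of same-numbered mice correlated at -0.249, -0.136, -0.004, -0.159 and 0.286, which shows no pairing but cannot exclude it. Members had between 193 and 18463 reads per mouse, and the part of depth in the spread between mice was not tested.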
